A study of Homo sapiens with 4 samples.

Results

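The 10 genes that make, break down and control polyamines described here were measured in Raji cells, an established Burkitt lymphoma line of B-cell origin, on 4 Affymetrix HG-U133 Plus 2.0 arrays. The genes were ODC1, SRM, SMS, AMD1, SAT1, OAZ1, OAZ2, AZIN1, SMOX and PAOX, and every probe set whose platform annotation gave only that symbol was taken, which was 22 of 54613 probe sets for the 10 genes. The 2 control arrays came from a wild-type Raji clone. The 2 others came from a Raji clone with lowered DLEU1, a gene for a long non-coding RNA, obtained with TALENs, engineered enzymes that cut a chosen DNA sequence. Every array came from cells kept in RPMI medium with fetal bovine serum. Each group was a single clone, and the labels do not say whether its 2 arrays came from separate cultures, so p-values reflect no more than array-to-array spread, which may be technical. The treatment label names the DLEU1 TALENs on the control samples too, so whether the control clone had been exposed to them is not settled by the labels.

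Polyamines are small, positively charged amines that bind nucleic acids and are needed by dividing cells. Putrescine is made from ornithine by ornithine decarboxylase, and spermidine and then spermine are built from it by adding aminopropyl groups taken from decarboxylated S-adenosylmethionine. Antizymes bind ornithine decarboxylase and send it to the proteasome, antizyme inhibitors displace it from them, and acetylation followed by oxidation turns spermine and spermidine back into smaller amines. Burkitt lymphoma cells carry a rearranged MYC gene, and ODC1 and SRM are among the genes that MYC protein is known to bind.

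In the DLEU1-downregulated clone SRM, AZIN1 and OAZ2 were higher, SAT1 was lower, and ODC1 was slightly higher. With the values as deposited ODC1 did not pass, nor did the 2 brighter SAT1 probe sets. The levels of SRM were 2.56-fold those of the control clone, against 1.73-fold for AZIN1 and 1.88-fold for OAZ2 in the brightest probe set of each gene (ratios of mean intensity as deposited, n = 2 arrays each). The deposited intensities share no common scale, and these differences were smaller after quantile normalization. In the same order the log2 differences were then 0.97, 0.42 and 0.54, against 1.35, 0.79 and 0.85 as deposited. PAOX was split between its probe sets, with 2 of 4 lower and 2 of 4 that did not pass. The dimmer of the 2 lower ones was bright enough to be tested in the control clone only. SMOX did not pass in any probe set tested. SMS did not pass after quantile normalization or as deposited but did after median centring, and AMD1 and OAZ1 each fell in 1 of 2 probe sets, the dimmer of the 2.

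The deposited intensities had no common scale, since the 2% trimmed mean ran from 131 to 197 over the 4 arrays. Differences are therefore given as log2(intensity + 16) after quantile normalization, which gives the arrays the same distribution, and the difference as deposited is printed beside them. The median difference over all 32768 probe sets tested was 0.01 after quantile normalization and 0.16 as deposited, where positive means higher in the DLEU1-downregulated clone. DLEU1 itself read 1363.4 and 1023.8 in the control clone and 523.7 and 616.9 in the downregulated clone, a log2 difference of -1.38 ± 0.07 (SE, limma adjusted p = 2.9e-06). Of the B-cell markers, the 5 of 6 that had a probe set read between 583.6 and 8376.2 on all arrays. After quantile normalization CD22, CD79B, PAX5 and CD79A fell, by 0.93, 0.41, 0.23 and 0.21 (limma adjusted p under 0.05), and MS4A1 did not pass. As deposited the calls were lost, at -0.58, -0.04, 0.14 and 0.15. Markers of T cells, monocytes and epithelium, 10 genes in all, read at most 30.6. An exact two-sided permutation test over 4 arrays cannot go below p = 0.333, so the tests rest on limma, which shares the spread across probe sets.

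Of the 21 polyamine probe sets tested, 6 rose and 7 fell at a limma adjusted p under 0.05, and the remaining 8 did not pass. A probe set was tested if its mean over the 4 arrays reached a normalized log2 value of 4.77. For 2 of the 21, the dimmest of PAOX and a SMOX probe set, the mean of the downregulated clone was below that, so they entered through the control clone alone. Among the other 19, 6 rose and 6 fell. Among all probe sets tested 33.8% passed, 17% higher and 16.7% lower. As deposited 5 rose and 3 fell, against a background of 22.3% that passed, 17.2% higher and 5.11% lower. Counted by gene in the brightest probe set, 4 of 10 rose and 1 fell (background 20.6% in each direction and 41.2% in all). As deposited 3 rose and limma found 0 that fell (0 also at an unadjusted p under 0.05, background 20.3% higher, 5.74% lower and 26.1% in all). The median log2 difference of the 10 genes was 0.10, against -0.01 for all genes. Groups did not overlap for 7 higher and 8 lower probe sets after quantile normalization, where 33.5% of all probe sets tested were higher and 32.5% lower without overlap (66% in all). As deposited it was 9 higher and 5 lower, against 40.8% and 17.9% (58.8% in all).

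**Figure D1:**
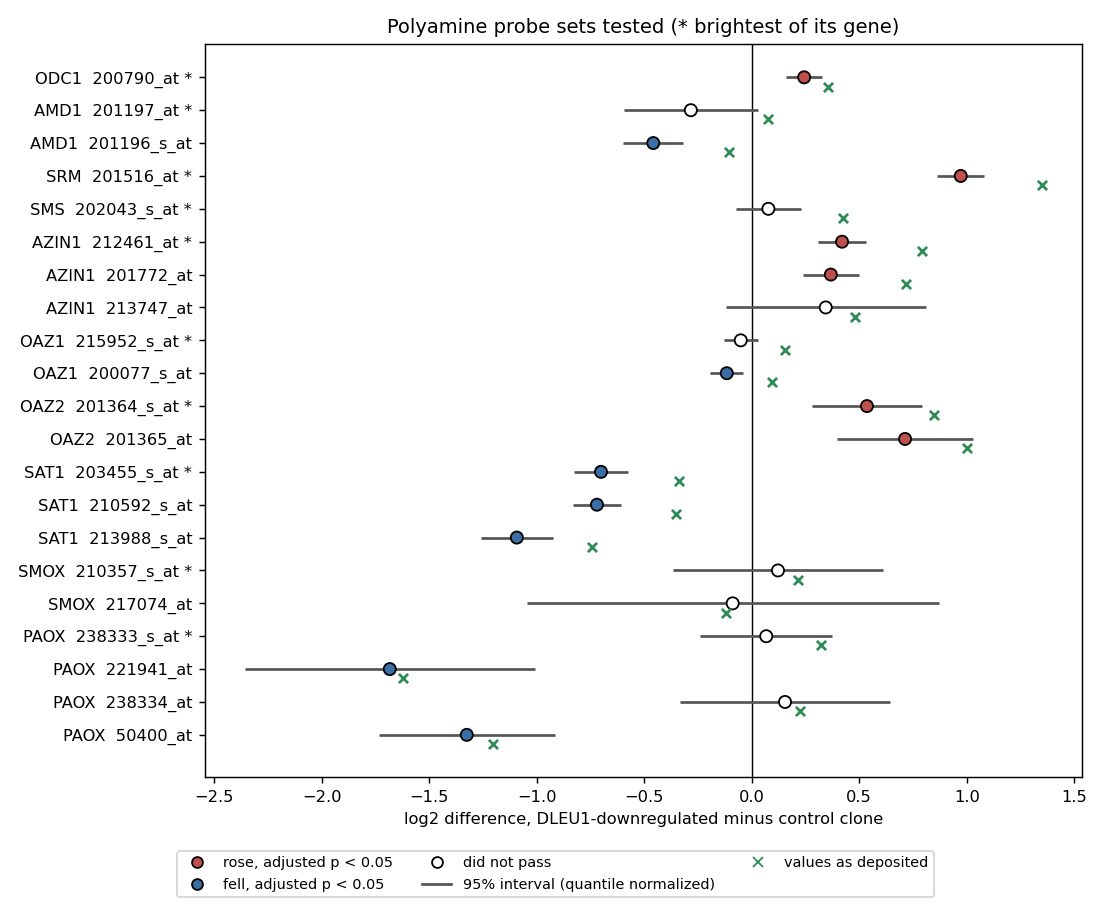
Log2 difference (x axis, DLEU1-downregulated minus control clone) of each polyamine probe set tested, with circles and 95% intervals after quantile normalization and crosses for the values as deposited. SRM has the largest positive difference at 0.97, the 3 SAT1 probe sets lie between -1.09 and -0.70, and 2 PAOX probe sets lie at -1.68 and -1.33 while the other 2 lie near 0.

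The differences of the 4 synthesis genes depended on the scaling. In the brightest probe set ODC1, SRM, SMS and AMD1 had log2 differences of 0.24, 0.97, 0.08 and -0.28 after quantile normalization and of 0.35, 1.35, 0.42 and 0.08 as deposited. After median centring they were 0.40, 1.39, 0.47 and 0.12, and ODC1, SRM and SMS passed. Differences between these genes were not tested. ODC1, the ornithine decarboxylase that makes putrescine and the first committed enzyme of the pathway, read 9601.2 and 9318.2 in the control clone and 11469.4 and 12762.5 in the downregulated clone. Both downregulated arrays were above both control arrays, as in 33.5% of all probe sets tested after quantile normalization and 40.8% as deposited. ODC1 rose by 0.24 ± 0.04 on the log2 scale (SE, limma adjusted p = 9.79e-04), and its difference as deposited was 0.35 (adjusted p = 0.0624). The call was also lost with a common trimmed mean, which brought the difference to 0.03 (adjusted p = 0.850), and without the intensity trend in the test (adjusted p = 0.136).

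SRM, the spermidine synthase that adds an aminopropyl group to putrescine, had the largest rise of the 10 genes. In the control clone it read 1794 and 1517 and in the downregulated clone 4029.3 and 4445.6, a mean of 1656 ± 196 against 4237 ± 294 (SD, n = 2 arrays each). The lowest downregulated array was above the highest control array by more than the spread within either clone. Its log2 difference was 0.97 ± 0.05 (SE, limma adjusted p = 2.91e-06), and 1.35 as deposited (adjusted p = 2.02e-09). With each array left out in turn it stayed between 0.95 and 1.00, and the call held at all 15 alternative settings. The 20 tested genes that flank SRM on chromosome 1 had a median of 0.19, of which 8 rose and 1 fell, while the other genes of that chromosome had a median of -0.03. Of all genes 20.6% passed in each direction. The part of the neighbouring genes in the SRM difference was not tested.

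SMS, the spermine synthase that adds the next aminopropyl group, read 1149.4 and 850.3 against 1266.2 and 1398.4. Its groups overlapped after quantile normalization, with a log2 difference of 0.08 (95% interval -0.07 to 0.23, limma adjusted p = 0.420), and 0.42 as deposited (adjusted p = 0.185). After median centring SMS rose by 0.47 (adjusted p = 0.00222). AMD1, the S-adenosylmethionine decarboxylase that supplies the aminopropyl donor, read 2022.9 and 1185.1 against 1644.3 and 1622.7 in its brightest probe set. The control arrays lay on either side of the downregulated arrays there, and the log2 difference was -0.28 ± 0.14 (SE, adjusted p = 0.150), turning to 0.08 as deposited. With each array left out it ran from -0.53, which passed without the second control array (adjusted p = 0.00426), to -0.04 without the first (adjusted p = 0.780). Its dimmer probe set, at 1058.1 and 840.3 against 818.9 and 935.2, fell by 0.46 on the log2 scale (adjusted p = 5.13e-04). As deposited that difference was -0.11 and did not pass (adjusted p = 0.807).

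**Figure D2:**
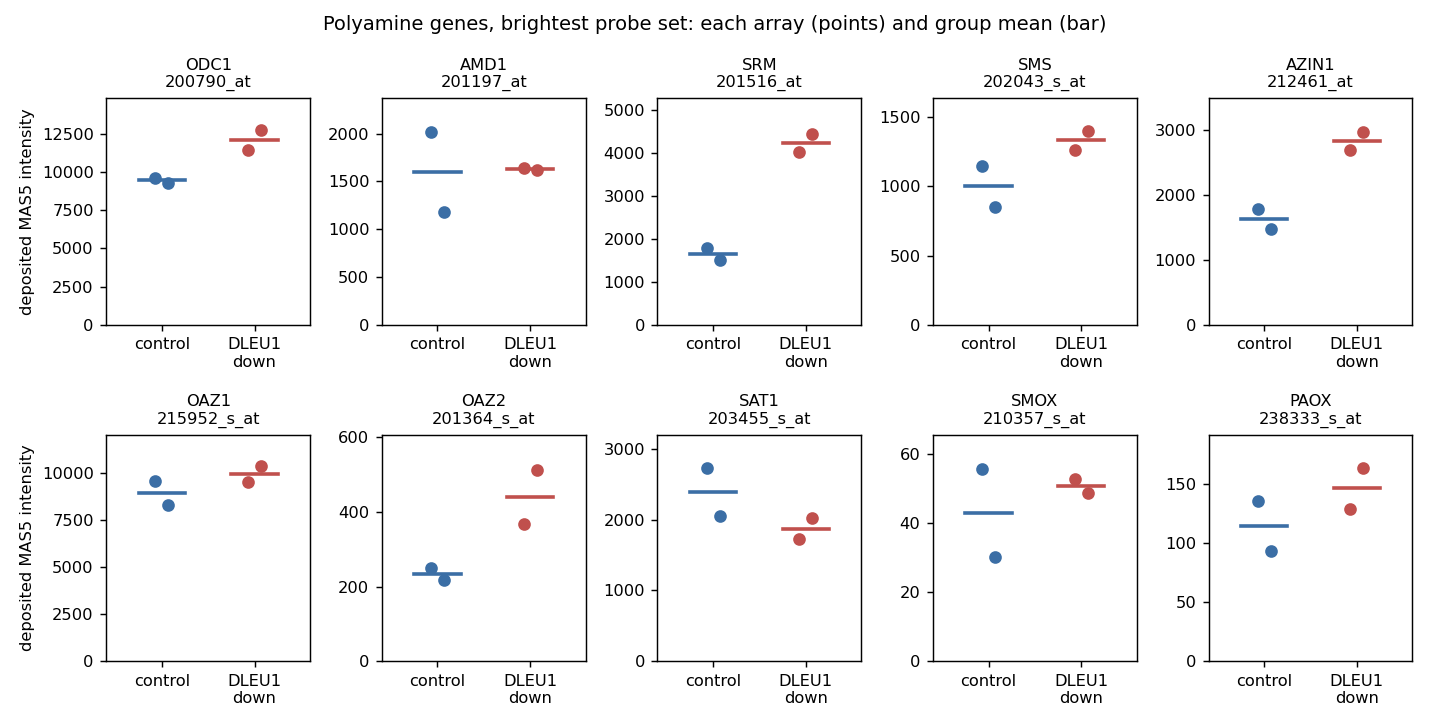
Deposited MAS5 signal intensity (y axis, linear, starting at 0) of the brightest probe set of each polyamine gene, with a point for each of the 2 control and 2 DLEU1-downregulated arrays and a bar for each group mean. The groups do not overlap for SRM (1517 to 1794 against 4029.3 to 4445.6), AZIN1, OAZ2, ODC1, SMS and SAT1, with only SAT1 lower in the downregulated clone. As deposited 58.8% of all probe sets tested did not overlap. For AMD1 the downregulated arrays lie between the control arrays.

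ODC1 and SRM both rose after quantile normalization, although the ODC1 call was lost as deposited and with a common trimmed mean. Both are textbook MYC targets, so their promoters in RefSeq (GRCh38.p14) were searched for CACGTG, the E-box that MYC and MAX bind. The motif reads the same on either strand. RefSeq windows were at hand for 7 of the 10 genes, 10 windows in all with the 250 bases before each start site. A match lay in 2 of the 10 windows, while 6.34% of 35116 windows of the same length held it. Of the AMD1 windows, 2 lie almost wholly on the same bases, so the 10 windows are not separate promoters. ODC1 and SRM were the 2 genes of 7 with a match, and the first ODC1 window held none. The windows with a match were 82.4% (ODC1) and 82% (SRM) G or C, and the comparison was not matched for this or tested. The SRM window below is at chr1:11060019-11060268 on the minus strand, and its match begins 199 bases before the start site. For ODC1 only the 30 bases around the match are shown, at chr2:10448024.0-10448053.0 on the minus strand. That match begins 29 bases before the second of 2 ODC1 start sites. Capitals mark the E-box in each sequence, which is written 5′ to 3′.
SRM: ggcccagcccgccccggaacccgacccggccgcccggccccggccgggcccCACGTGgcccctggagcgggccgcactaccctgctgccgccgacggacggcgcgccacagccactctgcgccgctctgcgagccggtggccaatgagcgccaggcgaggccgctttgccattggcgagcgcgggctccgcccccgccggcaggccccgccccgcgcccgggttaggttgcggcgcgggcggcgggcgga
ODC1: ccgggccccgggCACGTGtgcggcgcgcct

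A match of these letters describes the sequence and is not evidence of binding in these cells. MYC itself read 6348.8 and 5506.8 in the control clone and 5178.9 and 6990.5 in the downregulated clone. Its arrays overlapped as deposited, with a log2 difference of 0.03 (limma adjusted p = 0.941), and the sign turned after quantile normalization to -0.29 (adjusted p = 0.0159). That call was lost without the first control array, without the second control array and without the first downregulated array, at -0.29, -0.29 and -0.15 (adjusted p = 0.0566, 0.0564 and 0.0709). MAX, the partner that MYC needs to bind DNA, had a log2 difference of -0.11 (adjusted p = 0.153), or 0.26 as deposited (adjusted p = 0.412).

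The genes that control ornithine decarboxylase protein also differed among themselves. AZIN1, the antizyme inhibitor that frees the enzyme from antizyme, read 1787.1 and 1475.7 against 2691.2 and 2960 in its brightest probe set. The second AZIN1 probe set read 1057 and 891.1 against 1479.1 and 1742.3. In both, all downregulated arrays were above all control arrays, as in 33.5% of all probe sets tested after quantile normalization and 40.8% as deposited. AZIN1 rose by 0.42 ± 0.05 and 0.37 ± 0.06 in these probe sets (SE, limma adjusted p = 2.52e-04 and 0.00116), and by 0.79 and 0.72 as deposited (adjusted p = 0.00177 and 0.0121). Another AZIN1 probe set, dim at 38 and 45.4 against 60.3 and 68.5, had a log2 difference of 0.34 that did not pass (adjusted p = 0.239). The flanking genes of AZIN1 on chromosome 8 had a median of -0.02, with 7 of 20 that rose and 4 that fell (background 20.6% of genes in each direction).

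OAZ2, an antizyme and so a negative regulator of the decarboxylase, was higher in both of its probe sets. The brighter read 250.5 and 218.5 in the control clone against 367.2 and 513.4, and the dimmer 133.2 and 138.5 against 252.6 and 326.9. No downregulated array overlapped a control array in either probe set. Of all probe sets tested 33.5% were higher without overlap after quantile normalization and 40.8% as deposited. OAZ2 rose by 0.54 ± 0.11 (SE, limma adjusted p = 0.00584) and by 0.71 ± 0.14 (adjusted p = 0.00395), with 0.85 and 1.00 as deposited (adjusted p = 0.00818 and 0.00146). Without the second downregulated array the brighter probe set had a difference of 0.39 and no longer passed (adjusted p = 0.0702), and its call was also lost without the intensity trend (adjusted p = 0.0615).

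OAZ1, the most widely expressed antizyme, whose protein is made only after the ribosome shifts frame in response to polyamines, had high intensities in both clones. Its brightest probe set read 9572.1 and 8319 against 9517.3 and 10366.4, which overlapped as deposited. The log2 difference was -0.05 (95% interval -0.13 to 0.03, limma adjusted p = 0.297), turning to 0.15 as deposited (adjusted p = 0.512). The other OAZ1 probe set, at 9623.4 and 8545.9 against 9247.9 and 10161.5, fell by 0.12 on the log2 scale (adjusted p = 0.0266). That call was lost without the first control array and without either downregulated array (adjusted p = 0.0553, 0.151 and 0.0757). Its sign also turned, to 0.10 as deposited (adjusted p = 0.711), so no direction for OAZ1 held under both scalings. An antizyme inhibitor gene and an antizyme gene, AZIN1 and OAZ2, were thus both higher in the same clone.

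Among the breakdown genes, SAT1 was lower in all 3 of its probe sets. SAT1, the spermidine and spermine acetyltransferase that starts breakdown and export, read 2729 and 2043 in the control clone and 1725 and 2019.3 in the downregulated clone in its brightest probe set. Its second probe set read 2493 and 2042.9 against 1668.7 and 1867.5. The third read 790.5 and 666.1 against 393 and 463.4, the clearest separation of the 3. In all 3 the highest downregulated array lay below the lowest control array, also as deposited. Of all probe sets tested 32.5% were lower without overlap after quantile normalization and 17.9% as deposited.

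SAT1 fell by 0.70 ± 0.06, 0.72 ± 0.05 and 1.09 ± 0.07 on the log2 scale in the 3 probe sets (SE, limma adjusted p = 2.66e-05, 1.26e-05 and 1.22e-05). As deposited the differences were -0.34, -0.35 and -0.74, and only the third passed (adjusted p = 0.255, 0.236 and 0.0191). After median centring all 3 passed, at -0.29, -0.31 and -0.70, and all 3 passed with a common trimmed mean, at -0.66, -0.68 and -1.06. SMS and SAT1 both lie on the X chromosome, whose other genes had a median log2 difference of -0.01. The 20 genes that flank SAT1 had a median of 0.17, and 6 rose and 2 fell (background 20.6% of genes in each direction). The part of the neighbouring genes in the SAT1 difference was not tested.

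PAOX, the oxidase that acts on acetylated spermine and spermidine in peroxisomes, gave values that depended on the probe set. Its second brightest probe set read 103 and 72.7 in the control clone and 24.6 and 33 in the downregulated clone, and the dimmest read 49.8 and 70.1 against 4.1 and 13.8. In both, all downregulated arrays were below all control arrays, as in 32.5% of all probe sets tested after quantile normalization and 17.9% as deposited. PAOX fell by 1.33 ± 0.18 in the former and fell by 1.68 ± 0.30 in the latter (log2 scale, SE, limma adjusted p = 5.31e-04 and 0.00231), and as deposited the differences were -1.20 and -1.62 (adjusted p = 6.47e-05 and 3.17e-07). The mean of the latter in the downregulated clone, 8.95, lay under the added 16, so the size of that difference depends in part on the added number. Its mean normalized log2 value there, 4.64, was also under the lowest tested. The control clone alone thus brought it into the test, and its call is given as a description. When dim probe sets were kept, its adjusted p was 0.0178.

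The other 2 PAOX probe sets did not follow. They share a single source sequence in the platform annotation. The brighter, at 135.8 and 93.7 against 129.4 and 163.4, had overlapping groups and a log2 difference of 0.07 (95% interval -0.24 to 0.37, limma adjusted p = 0.745). The dimmer, at 30.2 and 34.3 against 35.8 and 45.3, had a difference of 0.15 (adjusted p = 0.627). With a gene taken as the mean of its probe sets, PAOX had a difference of -0.70 (adjusted p = 0.00905), so its call turns on how the probe sets are combined. That mean includes the dimmest probe set, which entered the test through the control clone alone. Which PAOX transcripts each probe set measures was not tested.

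SMOX, the spermine oxidase that converts spermine directly to spermidine, was dim in both clones. Its brightest probe set read 55.8 and 30.2 against 52.9 and 48.7 (log2 difference 0.12, 95% interval -0.37 to 0.61, limma adjusted p = 0.708). A second, which entered the test through the control clone alone, read 5 and 22.9 against 20.8 and 2.8, with arrays of 1 clone far apart, and did not pass (adjusted p = 0.898). The third, at 1.2 to 5.6 on all arrays, was too dim to be tested. On chromosome 20, where SMOX lies, the other genes had a median log2 difference of 0.29, and 10 of the 20 genes that flank SMOX rose (20.6% of all genes did).

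**Figure D3:**
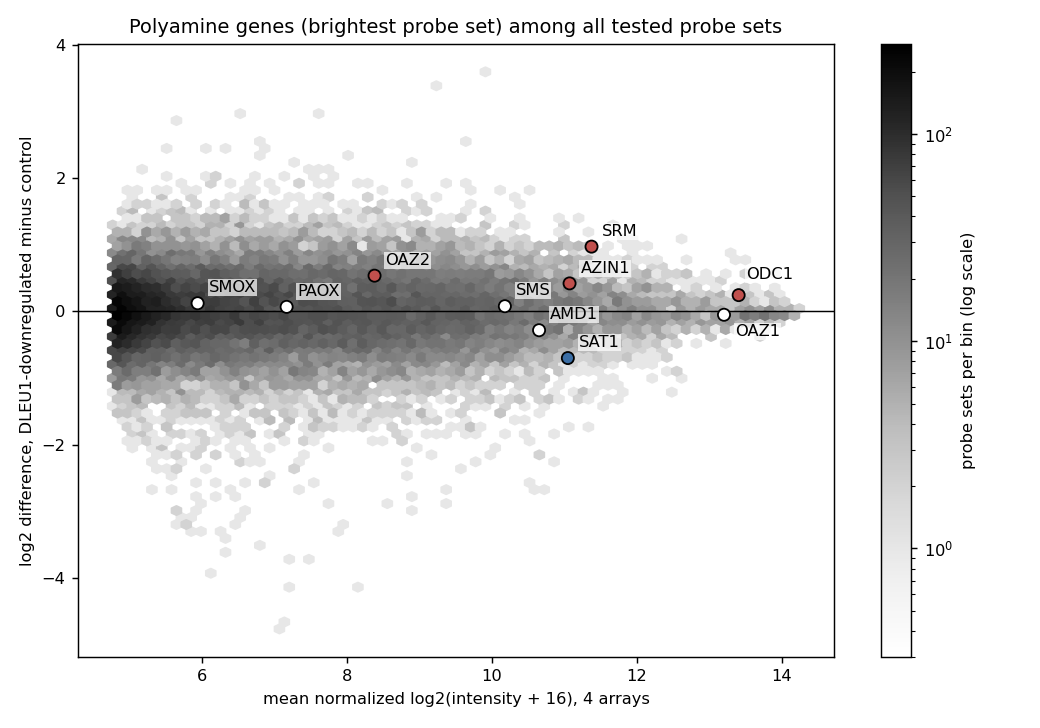
Log2 difference after quantile normalization (y axis) against mean normalized log2(intensity + 16) over 4 arrays (x axis) for all 32768 probe sets tested, shaded by their number per bin on a log scale, with the brightest probe set of each polyamine gene marked red where it rose, blue where it fell and white where it did not pass. SRM at 0.97 and SAT1 at -0.70 lie toward the upper and lower edges of the cloud at their brightness, and differences of bright probe sets, such as ODC1 at 0.24, have a narrower range.

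The neighbouring pathway was described with 5 gene lists of 42 genes, of which 38 had a probe set and 31 were bright enough to be tested. Of these 15 rose and 4 fell, against a background of 20.6% of genes in each direction, and 16 rose and 2 fell as deposited (background 20.3% and 5.74%). AZIN2 and SLC18B1 were bright enough in 1 clone only, and among the other 29 genes 14 rose and 3 fell. For all 31 the median log2 difference was 0.25, or 0.46 as deposited, where the median of all genes was -0.01 and 0.19.

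Most of the rises lay in the methionine cycle and the salvage of methylthioadenosine, the by-product of spermidine and spermine synthesis. In this list 8 of 13 tested genes rose, and the count that fell was 0 by limma, also as deposited. Of all genes 20.6% passed in each direction, and 5.74% were lower as deposited. At an unadjusted p under 0.05 limma found 2 lower, MTR and MAT2B, at log2 differences of -0.29 and -0.11 in the brightest probe set, and 0 as deposited, where both were above 0. The second MTR probe set went the other way, at 241.3 and 161.2 against 357.1 and 458.3, and rose by 0.67 (adjusted p = 0.00186), so no direction is given for MTR, the methionine synthase. MTAP, counted among the 8, was split between its probe sets. Its brightest rose by 0.56 and another by 0.43, while others did not pass, at -0.23, -0.13 and 0.003. MAT1A, also counted, rose from low control intensities of 24.7 and 9.4 to 69.2 and 92.4. AHCY, which clears S-adenosylhomocysteine, read 2227.3 and 1948.6 against 4241 and 4701.9, a log2 difference of 0.71 ± 0.05 (SE, adjusted p = 1.45e-05). MAT2A, the enzyme that makes S-adenosylmethionine in most cells, read 1937.7 and 1594.5 against 3076.8 and 3504.8 and rose by 0.53 (adjusted p = 4.72e-05). ADI1, a dioxygenase of the salvage pathway, read 1288 and 1097.3 against 2224 and 2454.5 and rose by 0.60 (adjusted p = 6.06e-05). MTRR, which reactivates methionine synthase, rose by 0.38 (adjusted p = 8.29e-04). In all 4 genes both downregulated arrays were above both control arrays, as in 33.5% of all probe sets tested after quantile normalization. The 4 were named for the smallest p of the list, so this lack of overlap is given as a description.

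The ornithine and arginine list had 3 rises and 1 fall among 5 tested genes of 7 (background 20.6% of genes in each direction). ALDH18A1, which makes the precursor of ornithine and proline from glutamate, went from a mean of 1392 to 2597 and rose by 0.54 (limma adjusted p = 1.66e-04), and OAT, the ornithine aminotransferase, rose from 2141 to 3446 (log2 difference 0.32, adjusted p = 0.00109). ASL, the argininosuccinate lyase, rose from 122.8 to 306.4 (0.93, adjusted p = 4.10e-04). ASS1, the enzyme just before it, fell by 0.71 (adjusted p = 0.0307), with 71.8 and 71.5 against 32.1 and 58, and did not pass as deposited (adjusted p = 0.104). The ASS1 call was also lost without the second control array (-0.59, adjusted p = 0.135), without the first downregulated array (-0.47, adjusted p = 0.219) and when dim probe sets were kept (adjusted p = 0.0923).

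Hypusine is a modified lysine made from spermidine on the translation factor eIF5A. EIF5A rose by 0.20 ± 0.04 (SE, limma adjusted p = 0.00201), with 8235.9 and 7354.2 against 10172.7 and 10718.1, and DOHH, the hydroxylase of the second step, rose by 0.81 from low intensities of 23.8 and 16.5 to 41.4 and 56.3 (adjusted p = 0.0161). The DOHH call was lost without the first or the second downregulated array, at 0.89 and 0.68 (adjusted p = 0.0649 and 0.131), and when dim probe sets were kept (adjusted p = 0.0683). DHPS, the deoxyhypusine synthase that uses spermidine in the first step, read 750.4 and 496.6 against 509.1 and 601.1 and fell by 0.48 (adjusted p = 0.00457). As deposited its groups overlapped and the difference of -0.14 did not pass (adjusted p = 0.751). This probe set carries the suffix _x_at, a sign of possible cross-hybridisation, and the other 2 DHPS probe sets also fell after quantile normalization. EIF5A2 was too dim to be tested.

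In the list of related enzymes 1 of 4 tested genes rose and 1 fell (background 20.6% of genes in each direction). AZIN2, a second antizyme inhibitor, read 4.6 and 5.9 against 33 and 42.7 in the probe set tested, a log2 difference of 1.34 (limma adjusted p = 0.00235). Its control intensities lay under the added 16, and its control mean, at a normalized log2 value of 4.37, was below the lowest tested. It thus entered the test through the downregulated clone alone, and its call is given as a description. When dim probe sets were kept, its adjusted p was 0.0114. The other AZIN2 probe set, too dim to be tested, was lower in the downregulated clone without overlap, at 16.7 and 11.6 against 11.1 and 2 (log2 difference -0.37 when dim probe sets were kept, adjusted p = 0.438). SAT2, a relative of SAT1 that acts mainly on other substrates, read 267.4 and 205.7 against 126.9 and 118.9 and fell by 1.12 ± 0.12 (SE, adjusted p = 1.74e-04), and by 0.85 as deposited (adjusted p = 0.00772). OAZ3, an antizyme of testis, and AGMAT, named for agmatine breakdown, did not pass (adjusted p = 0.547 and 0.321).

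Of 6 tested transport genes 1 rose and 1 fell, or 2 and 1 as deposited. The background was 20.6% of genes in each direction, or 20.3% higher and 5.74% lower as deposited. ATP13A3, a pump linked to polyamine uptake, read 622.4 and 504.7 against 1022.3 and 1399.6 and rose by 0.72 (limma adjusted p = 3.00e-04). A dimmer ATP13A3 probe set, at 61.3 and 35.3 against 64.4 and 89, had a difference of 0.41 that did not pass (adjusted p = 0.151). ATP13A2, the lysosomal polyamine exporter, had a log2 difference of 0.61 that did not pass (adjusted p = 0.111) but did as deposited (0.69, adjusted p = 0.0410) and without the second control array (0.97, adjusted p = 0.0285). SLC18B1, a vesicular polyamine transporter, read 49.8 and 31.4 against 1.3 and 13.3, a log2 difference of -1.33 (adjusted p = 0.00809). Its mean in the downregulated clone, at a normalized log2 value of 4.51, was below the lowest tested, so it entered through the control clone alone and its call is given as a description. When dim probe sets were kept, its adjusted p was 0.0390, and without the first downregulated array the difference was -0.93 (adjusted p = 0.0586). SLC3A2, the heavy chain of several amino acid exchangers, had a difference of -0.23 (adjusted p = 0.159), turning to 0.11 as deposited.

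**Figure D4:**
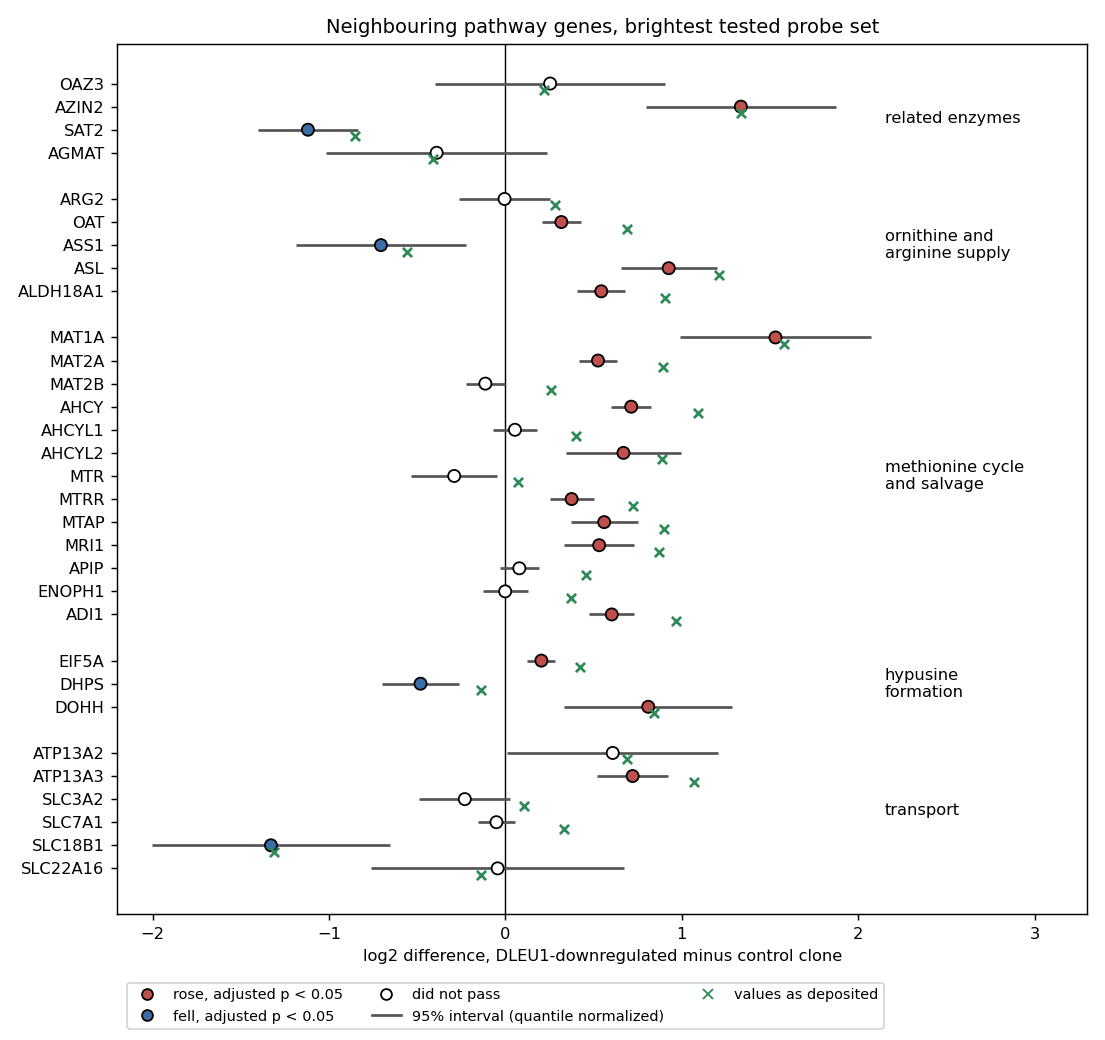
Log2 difference (x axis, DLEU1-downregulated minus control clone) of the brightest probe set of each tested gene in the 5 neighbouring lists, with 95% intervals after quantile normalization and crosses for the values as deposited. In the methionine list 8 of 13 genes rose (20.6% of all genes did), and in the hypusine list EIF5A and DOHH lie above 0 and DHPS below it.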

How the data were processed

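The authors deposited a MAS5 signal intensity (linear) for 54613 probe sets and 62 control probe sets per array; MAS5 is named per the submitters' processing notes, and its version, target and detection calls are not given in the sources used here. Median intensities were 18.4 to 22.6. log2(intensity + 16) was quantile normalized, control probe sets and the 40% dimmest probe sets (mean log2 value) were left out, and 32768 were tested with limma 3.58.1 in R 4.3.3 (eBayes with an intensity trend, group as the only term, Benjamini-Hochberg adjustment over all probe sets tested, threshold 0.05). Log2 differences understate changes of dim probe sets because of the added 16. As deposited, limma's prior degrees of freedom were infinite, against 6.75 after quantile normalization, so the p-values as deposited share 1 spread among probe sets of like brightness.

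The brightest tested probe set stood for a gene. Symbols came from the platform annotation of 41091 probe sets with a single symbol, updated through RefSeq. The members and gene lists were chosen with earlier results of these data known. Named genes are the members, up to 4 genes per list with the smallest p (every tested gene of lists of 5), DLEU1, MYC and MAX. MTR, MAT2B, MTAP and MAT1A were added after their values were seen. The fit was tested on simulated data. Alternatives were other pseudocounts, dimness filters, scalings, no trend, a replicate block, each array left out, a stricter threshold, the averaging of probe sets per gene and no _x_at probe sets. The labels number the replicates 1 and 2 in each clone, and deviations of same-numbered arrays correlated at -0.01 across probe sets after quantile normalization. With 2 arrays per clone this cannot settle whether same-numbered arrays shared a culture or batch. The main test did not pair the arrays.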

Additional observations from a re-analysis of the deposited data

How the results depend on the processing

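Over all probe sets (5584 higher and 5488 lower), the counts were 10420 higher and 2482 lower after median centring, 5620 higher and 1673 lower as deposited, 3589 and 3590 without the intensity trend, and 3592 and 3563 at a threshold of 0.01. With 1 array left out they ran from 3352 to 5308 higher and from 3653 to 4765 lower. Polyamine probe sets that rose went from 6 to 3 and genes that rose from 4 to 2 without the trend. Probe sets that fell went from 7 to 3 as deposited. Genes that fell, 1 in the main analysis, were 0 as deposited (limma, 0 also at an unadjusted p under 0.05), 2 with a replicate block (AMD1 joined SAT1, adjusted p = 0.0104), 1 to 2 with each array left out (2 without control replicate 2, again with AMD1, whose difference ran from -0.53 to -0.041 over the 4 arrays left out) and 3 with probe sets averaged per gene. The replicate block moved no other count of calls given here by over 1.5 times, and the dimmer OAZ1 probe set lost its call under it (adjusted p = 0.0629), as it did at 5 other settings besides the 2 at which its sign turned. In the neighbouring lists 4 genes fell, and 2 did as deposited or without the trend, and 2 to 4 with an array left out.

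Signs turned as deposited and after median centring for AMD1 (0.076 and 0.12), OAZ1 (0.15 and 0.20, and 0.096 and 0.14 in its other probe set), SLC3A2 (0.11 and 0.15), MYC (0.025 and 0.069) and MAX (0.26 and 0.31). With a common trimmed mean the brightest SMOX probe set turned to -0.020 and the third PAOX probe set by brightness to -0.0077. Averaging its probe sets, the dimmest of which entered through the control clone alone, turned PAOX to -0.70. With each array left out, log2 differences ran from -0.11 to 0.35 and from -0.61 to 0.39 in the SMOX probe sets, from -0.022 to 0.16 in the brightest and -0.028 to 0.35 in the third PAOX probe set, and from -0.029 to 0.56 for OAZ3. SRM and the brightest AZIN1 probe set kept direction and call at all 15 settings. Without detection calls it is unknown whether dim probe sets such as those of SMOX, AZIN2 and SLC18B1 were above background. Causes of these changes were not tested.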
